A study of Mus musculus with 12 samples.

Results

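The mouse genome was examined here in 4 stretches: chromosome 12, chromosome 11 and chromosome 1 from 100 Mb to their distal ends, and chromosome 2 from 140 Mb. In each of them most genes of 1 clone lay on the same side of the other 5 clones. The members are genes of these 4 segments that carry a symbol, reached a mean log2 level of at least 6 over 12 arrays and changed by less than 0.3 log2 with LPS over all clones, with 1 feature per gene and without respiratory chain and proton pump genes (symbols beginning Nduf, Cox, Atp5 or Atp6v). They number 822 of 27293 genes: 271 on chromosome 12, 161 on distal chromosome 11, 205 on distal chromosome 1 and 185 on distal chromosome 2. Genes passing the same limits anywhere in the genome are called steady genes here; they number 7138, and 6316 of them lie outside the segments. Of 2924 genes measured on the segments, 1777 were under the level minimum, 10 had a symbol that was left out and 315 changed with LPS by the limit or more. The level minimum was set on all clones, and 6 members would have missed it on the mean of the other 5 clones alone.

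The arrays, 12 in all, held RNA of 6 clones grown from MH-S, an alveolar macrophage line of the mouse, with 1 array per clone and condition. By their labels, clones 7, 29 and 75 have low and clones 69, 73 and 83 high activity of IL-4Ra, a receptor chain for the cytokines IL-4 and IL-13. Each clone was left unstimulated or was given LPS, a bacterial cell wall component, at 0.2 µg/ml for 16 h, which gave 4 groups of 3 arrays. Each clone is a single line of cells with no second culture per condition, so a value particular to a clone has no replicate other than its array in the other condition, and p-values between groups measure the spread between these clones. Of 12 macrophage marker genes, 10 reached a log2 level of 6 (Itgam and Mrc1 did not), and the median over these markers lay between 10.2 and 10.8 on each array. None of the epithelial, lymphocyte, neutrophil or mast cell markers reached it, nor did 5 of 6 fibroblast markers.

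A chromosome segment of many Mb holds genes of unrelated function that can share copy number. Established cell lines are known to gain and lose whole chromosomes and chromosome ends as they are passaged, and clones of a line can differ in this. An expression array gives RNA levels only; DNA was not measured, and its part in the values below was not tested.

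The promoter of the member that ranked first in each segment, by the smaller of its shifts in the 2 conditions, is shown here to place it in the genome (RefSeq, GRCm38.p6, the assembly also named mm10; 250 bases before to 50 after the transcript start, 5′ to 3′ on the gene's strand). Capitals mark matches, on either strand, to TATAAA (the TATA box), CCAAT (the box of that name) and GGGCGG (the GC box), none of which overlapped another.
Cep170b (chr12:112721924-112722223, plus strand): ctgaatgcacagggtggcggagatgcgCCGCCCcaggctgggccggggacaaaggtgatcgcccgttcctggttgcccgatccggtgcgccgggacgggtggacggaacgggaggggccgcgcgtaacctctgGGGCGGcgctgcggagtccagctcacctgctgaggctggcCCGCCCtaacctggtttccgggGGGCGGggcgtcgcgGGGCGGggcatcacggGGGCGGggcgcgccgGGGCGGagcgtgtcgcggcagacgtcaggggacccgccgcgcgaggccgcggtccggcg
Armc7 (chr11:115475417-115475716, plus strand): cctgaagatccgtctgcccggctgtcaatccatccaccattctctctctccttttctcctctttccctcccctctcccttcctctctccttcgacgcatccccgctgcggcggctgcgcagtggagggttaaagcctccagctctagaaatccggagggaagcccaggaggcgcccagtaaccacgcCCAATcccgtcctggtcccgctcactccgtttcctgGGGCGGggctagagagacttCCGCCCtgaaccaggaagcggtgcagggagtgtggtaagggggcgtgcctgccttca
Ptpn7 (chr1:135132450-135132749, plus strand): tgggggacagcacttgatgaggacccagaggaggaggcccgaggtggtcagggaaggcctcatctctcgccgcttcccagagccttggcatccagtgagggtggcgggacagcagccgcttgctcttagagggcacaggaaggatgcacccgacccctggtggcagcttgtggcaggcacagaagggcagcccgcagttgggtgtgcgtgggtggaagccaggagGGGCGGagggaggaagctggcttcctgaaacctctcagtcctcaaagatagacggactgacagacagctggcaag
Rbbp9 (chr2:144550810-144551109, minus strand): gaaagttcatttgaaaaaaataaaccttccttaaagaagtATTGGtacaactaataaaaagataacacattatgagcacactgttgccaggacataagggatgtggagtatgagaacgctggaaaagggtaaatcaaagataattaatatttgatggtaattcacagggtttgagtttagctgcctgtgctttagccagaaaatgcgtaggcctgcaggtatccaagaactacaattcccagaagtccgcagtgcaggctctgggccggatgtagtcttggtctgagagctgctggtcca
Cep170b held 7 GC boxes, Armc7 2 GC boxes and 1 CCAAT box, Ptpn7 1 GC box, and Rbbp9 1 CCAAT box. No TATAAA was in any of these 4 windows. GGGCGG was in 35.7% of all 32851 promoters of that length and in 65.6% of the 674 promoters of members, CCAAT in 37.4% and 40.8%, and TATAAA in 13.6% and 4.60%. The share of members' promoters with GGGCGG was 62.4% on chromosome 12, 67.7% on distal chromosome 11, 66.9% on distal chromosome 1 and 66.9% on distal chromosome 2. Members had to reach a level minimum that the other promoters' genes did not.

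The shift of a gene is the log2 level of a clone minus the mean of the other 5 clones in the same condition, and the shift of a segment is the median over its members. The segments were chosen on these values, which are given as a description. Chromosome 12, distal chromosome 11 and distal chromosome 2 stood apart in clone 73, and distal chromosome 1 in clone 83, both of high IL-4Ra activity. On chromosome 12 the shift of clone 73 was 0.35 unstimulated and 0.37 with LPS, while the other clones lay between −0.11 and −0.00 and between −0.11 and −0.03. On distal chromosome 11 it was 0.37 and 0.36, against −0.09 to −0.05 and −0.15 to −0.01. On distal chromosome 1 clone 83 stood at 0.39 and 0.40, against −0.09 to −0.03 and −0.13 to −0.04. On distal chromosome 2 clone 73 was the low one, at −0.33 and −0.27, against 0.03 to 0.10 and −0.07 to 0.11. As folds of the mean over both conditions these are 1.28, 1.30 and 1.31 times and, for chromosome 2, 0.805 times the other clones. In each segment and condition the described clone lay outside the range of the other 5. The described clone enters the mean that the others are set against, which moves their values slightly to the opposite side by construction. In RNA pooled from a culture, a lower level in every cell and fewer cells with the RNA cannot be told apart.

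**Figure D1:**
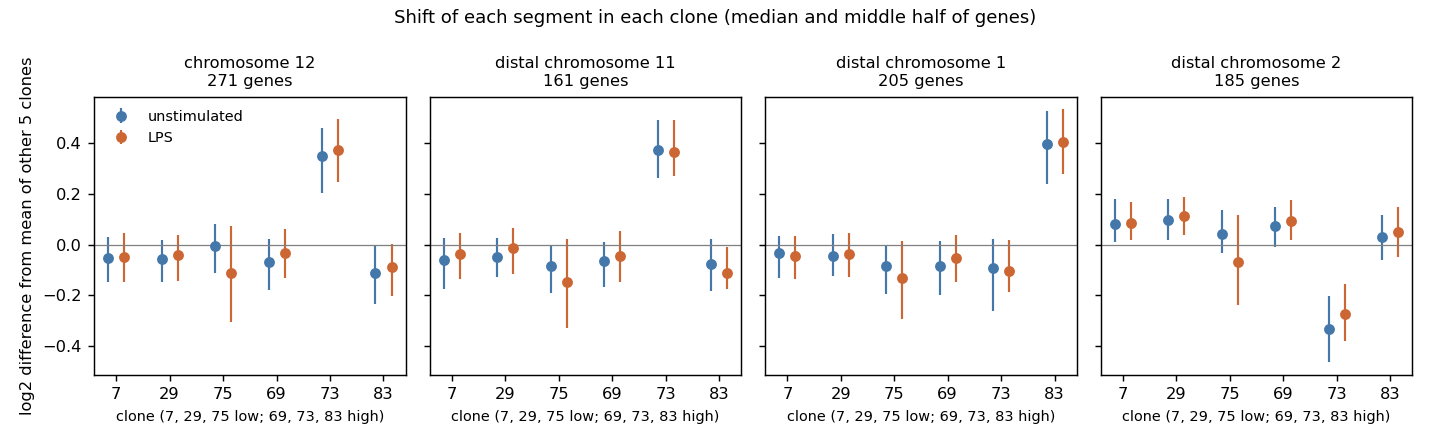
Shift of each segment (log2 difference from the mean of the other 5 clones, vertical axis) in each clone (horizontal axis), unstimulated in blue and with LPS in orange; points are medians over the member genes and bars the interquartile range. Clone 73 stands at 0.35 and 0.37 on chromosome 12 and at −0.33 and −0.27 on distal chromosome 2, clone 83 at 0.39 and 0.40 on distal chromosome 1, and the other clones lie near 0.

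The shift was spread over most members and not carried by a few. On chromosome 12, clone 73 was above each of the other 5 clones for 212 of 271 members unstimulated and 209 with LPS; among all steady genes this held for 20% and 18.7%. On distal chromosome 11 it was above them for 137 and 135 of 161 members. On distal chromosome 1, clone 83 was above the others for 169 and 175 of 205 members, where the background over steady genes was 19.4% and 17.8%. On distal chromosome 2, clone 73 was below the others for 156 unstimulated and 123 with LPS of 185 members, where the background was 26.4% and 16.2%. These counts use the contrast that chose the segments, so nothing is read from their excess.

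By size, 187 members of chromosome 12 (69.0%) and 118 of distal chromosome 11 (73.3%) were higher in clone 73 by at least 0.2 log2 in both conditions, beside 10% of all steady genes and 6.35% of those outside the segments. On distal chromosome 1, 159 members (77.6%) were higher in clone 83 by that size, beside 10.6% of all steady genes and 9.2% outside. On distal chromosome 2, 109 members (58.9%) were lower in clone 73, beside 7.47% and 6.21%. The same size in the opposite direction was reached by 2 members on chromosome 12 and by 1 on each of the other segments. The interquartile range of the shifts, averaged over both conditions, ran from 0.26 to 0.46 on chromosome 12, 0.27 to 0.47 on distal chromosome 11, 0.28 to 0.52 on distal chromosome 1 and −0.40 to −0.19 on distal chromosome 2. The SD among members was 0.20, 0.17, 0.24 and 0.32 in the same order, beside 0.20 among the steady genes outside the segments in clone 73 and 0.21 in clone 83, whose medians were −0.01 and 0.02.

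The shifts of single genes were similar in both conditions, which are separate arrays of the same clone. The same direction in both was found for 236, 150, 191 and 164 members of chromosome 12, distal chromosome 11, distal chromosome 1 and distal chromosome 2. The choice of segments favours these counts. Their share over all steady genes was not computed, so nothing is read from them about the members. Across genes, which are not independent, the shifts of both conditions correlated at 0.58, 0.57, 0.79 and 0.83. On distal chromosome 2 this value includes Rbbp9 and Cst7, which lie far from the other members. By another measure, deviations from the group means over all genes, the 2 arrays of a clone also correlated. This was 0.41 for clone 73 and 0.42 for clone 83, so such agreement is not particular to the members. The median difference between the LPS and the unstimulated shift was 0.04, −0.00, 0.01 and 0.06. The LPS array of clone 75 lay 0.09 lower than the other clones over all steady genes (median −0.09), and its values had the widest bars in the plot of shifts by clone.

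**Figure D2:**
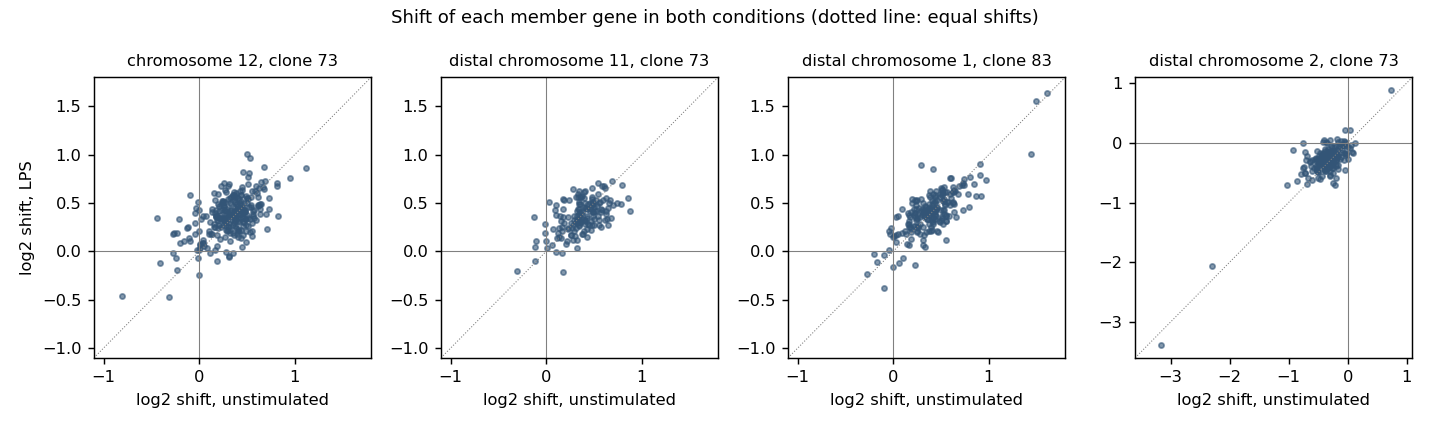
Shift of each member gene in the described clone, unstimulated (horizontal axis, log2) against LPS (vertical axis, log2), 1 panel per segment; the dotted line marks equal shifts. Most genes lie above 0 on both axes for chromosomes 12, 11 and 1 and below 0 for chromosome 2, where Rbbp9 and Cst7 lie at −3.16 and −2.29 unstimulated.

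On chromosome 12 the members lay between 3.2 and 118.3 Mb, and the median shift of clone 73 in 12 windows of 10 Mb ran from 0.28 to 0.48, with the other clones between −0.19 and 0.03. Cep170b, which codes for a centrosomal protein (112722174 to 112746591, plus strand), had the furthest shift. Unstimulated, its log2 level was 8.13 in clone 73, against 7.08, 6.59 and 6.77 for the low clones (7, 29, 75) and 7.33 and 7.27 for clones 69 and 83. With LPS it was 7.74, against 6.84, 6.58 and 6.72, and 7.16 and 7.11. Clone 73 was the highest in both conditions and the low clones were lowest, so that part of the order follows the phenotype label. Klhl28, a kelch repeat protein, stood at 7.79 in clone 73 and at 6.66 to 7.00 in the others unstimulated, and at 7.44 and 6.22 to 6.92 with LPS. Here the phenotypes did not separate: clones 69 and 83 lay among or below the low clones. Akap6, which anchors protein kinase A, was at 7.28 in clone 73 and at 7.12 in clone 83 unstimulated, so the distance to the next clone was small. The shifts averaged over both conditions were 0.99 for Cep170b, 0.85 for Klhl28, 0.76 for 9030617O03Rik, 0.71 for Gpatch2l and 0.78 for Akap6.

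On chromosome 12 each of 4 role lists held members past 0.2 log2. The role lists used here were drawn up with earlier results of these data known, and are given by counts. Of 15 members in RNA processing and translation, 13 were higher by at least 0.2 log2 in both conditions, with Dicer1, the nuclease that cuts microRNA precursors, at 0.68 unstimulated and 0.65 with LPS. Of 14 members in signalling and transcription, 10 were, with Hif1a, the oxygen-regulated transcription factor, at 0.43 and 0.50, and Akt1, a kinase of growth factor signalling, at 0.29 and 0.21. Among 9 members in metabolism it was 8, and among 8 in protein folding, degradation and lysosome it was 5, with the chaperone Hsp90aa1 at 0.36 and 0.58. The medians of the lists, averaged over conditions, were 0.36, 0.33, 0.41 and 0.33, beside 0.36 for all members of the chromosome.

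Some members are placed on another chromosome by RefSeq than by the array annotation. On chromosome 12 the member furthest against the direction, 2900097C17Rik, was one of them, at 7.85 in clone 73 and 8.45 to 8.80 in the others unstimulated, and at 8.06 and 8.41 to 8.61 with LPS. The array annotation puts it at 36376058 to 36376922 on chromosome 12, but RefSeq places its gene identifier, under the name Norad (a long noncoding RNA that binds Pumilio proteins), on chromosome 2 at 156.4 Mb, inside the segment that was low in the same clone. Of the 822 members, RefSeq put 773 on the same chromosome and 12 on another, and 37 had no match. The 6 placed away from chromosome 12 had a median shift of 0.00 and ran from −0.63 to 0.35, and the 6 placed away from chromosome 1 had a median of 0.09 and ran from −0.08 to 0.17, against 0.37 and 0.40 for those on the same chromosome. Tfb2m, a mitochondrial transcription factor annotated on chromosome 12 but placed by RefSeq on distal chromosome 1, was at −0.20 and 0.08 in clone 73 and at 0.27 and 0.84 in clone 83. Gm4024, placed on chromosome 13, was at 0.20 and 0.49 in clone 73 and also raised in clone 83, at 0.51 and 0.18. Mpc1, a mitochondrial pyruvate carrier placed on chromosome 17, was at −0.41 and −0.12 in clone 73 and at −0.03 and 0.06 in clone 83. Whether placement accounts for their values was not tested. Members whose probes can bind other transcripts had medians of 0.07 (19 genes) on chromosome 12 and 0.11 (11 genes) on distal chromosome 1, and −0.31 (19 genes) on distal chromosome 2.

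**Figure D3:**
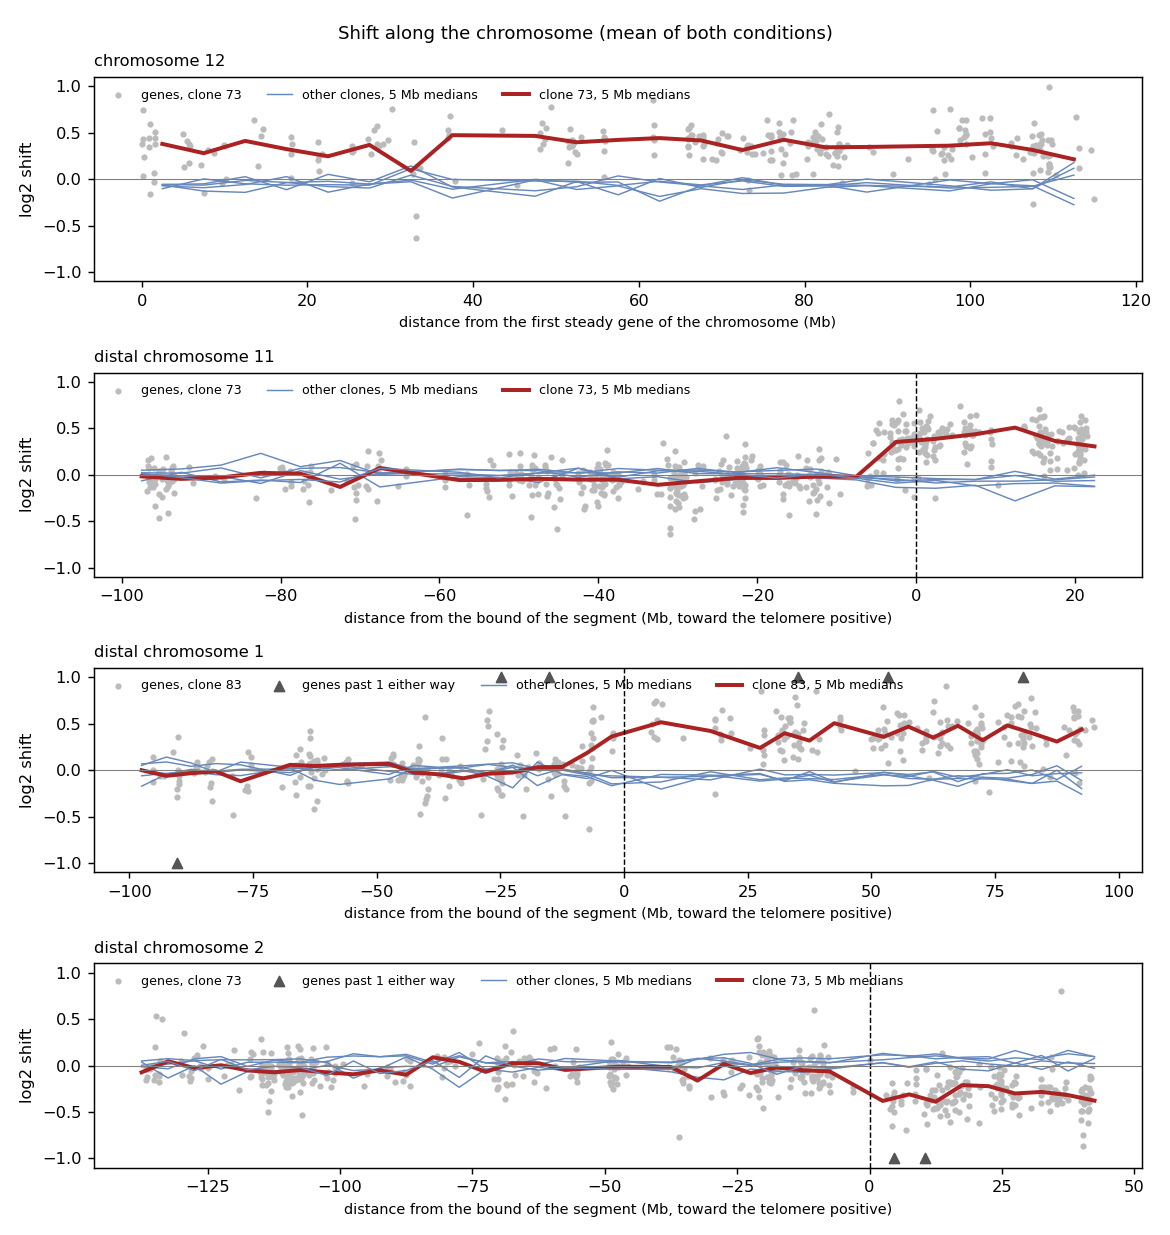
Shift (log2, mean of both conditions, vertical axis) against the distance in Mb from the bound of the segment, or on chromosome 12 from the first steady gene. Grey points are genes in the described clone, triangles genes past 1, the red line its medians in 5 Mb windows and blue lines those of the other clones; the red line leaves the others a few Mb before the bound on chromosomes 11 and 1, close to it on chromosome 2, and is apart along nearly all of chromosome 12.

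On distal chromosome 11 the shift of clone 73 ran from 0.31 to 0.41 in 3 windows of 10 Mb. It began before the bound. In windows of 2 Mb its median was −0.04 from 92 to 94 Mb, 0.18 from 94 to 96 Mb, 0.35 from 96 to 98 Mb and 0.36 from 98 to 100 Mb, and further toward the centromere the 10 Mb windows lay between −0.07 and 0.06. Next to the bound, Gm14178 and Gm14194 just outside it stood at 0.35 and 0.31 and Krtap4-13, a keratin-associated protein, at −0.24, while Eif1, a translation initiation factor, just inside stood at 0.42, Gast, the gene of gastrin, at −0.04 and Nt5c3b, a nucleotidase, at 0.24. The bound of 100 Mb therefore cut through genes that were already shifted.

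Armc7, an armadillo repeat protein, ranked first on distal chromosome 11 by the smaller of its shifts in the 2 conditions (0.69), level with Tanc2 (0.69), whose mean over both conditions was larger (0.74 against 0.71). It was at 8.18 in clone 73 unstimulated, against 7.33, 7.50 and 7.29 for the low clones (7, 29, 75) and 7.62 and 7.72 for clones 69 and 83, and with LPS at 8.30, against 7.53, 7.76 and 7.38, and 7.56 and 7.64. Clone 73 was the highest in both conditions; clones 69 and 83 lay above the low clones unstimulated and among them with LPS. Tanc2, a scaffold protein, was at 8.07 and 7.98 in clone 73, against 6.95 to 7.70 and 7.01 to 7.47 in the others. Ten1, of the complex that caps telomeres, was at 9.01 and 8.81, against 8.17 to 8.52 and 7.77 to 8.45. Ddx5, an RNA helicase, was at 11.43 and 11.31, against 10.65 to 10.95 and 10.46 to 10.84; its feature covers only chr11:106783171-106783271. In these 4 genes clone 73 stood above the range of the other 5. In Ccdc57, the next in rank, clone 83 was the higher unstimulated (6.55 against 6.51), and clone 73 with LPS (6.58 against 6.53).

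Among the role lists of distal chromosome 11, 8 of 12 members in RNA processing, translation and proteasome were higher by at least 0.2 log2 in both conditions, 9 of 14 in signalling and transcription, 6 of 8 in cell division and DNA and 7 of 10 in metabolism. All 4 members listed under macrophage surface and lysosome were, led by Cd300lf, an inhibitory receptor of myeloid cells, at 0.70 and 0.48. Tbcd, on that list, is a tubulin folding cofactor. Of all members of the segment, 73.3% were past this size. Grb2, the adaptor of receptor kinases, stood at 0.54 and 0.70, Stat5b, a transcription factor of cytokine signalling, at 0.53 and 0.47, Brca1, of DNA repair, at 0.65 and 0.50, and Fasn, which makes fatty acids, at 0.49 and 0.48. Near 0 were Tk1, thymidine kinase, at 0.06 and 0.07, and Srsf2, a splicing factor, at 0.10 and −0.00. Against the direction lay Rundc3a (−0.30 and −0.20) and Map2k6, a kinase that activates p38 (−0.12 and −0.10), and for both the values of clone 73 lay within the range of the other clones. The mean shift of Map2k6 went from −0.11 to −0.03 without clone 29, −0.04 without clone 7 and −0.06 without clone 75, and that of Rundc3a from −0.25 to −0.17 without clone 83.

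On distal chromosome 1 the shift of clone 83 ran from 0.37 to 0.52 in 10 windows of 10 Mb up to 195.1 Mb. The shift of clone 83 too began before the bound: the medians of 2 Mb windows were 0.07 from 90 to 92 Mb, 0.25 from 92 to 94 Mb and 0.35 from 96 to 98 Mb. The last steady genes before the bound, Ppip5k2, Gin1 and Pam, lay at 97.7 to 97.8 Mb with shifts of 0.36, 0.40 and 0.35, and the first one inside, Pign, lay at 105.5 Mb with 0.41. There was no steady gene between them.

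Ptpn7, a tyrosine phosphatase of blood cells that acts on MAP kinases, had the furthest shift on distal chromosome 1. It was at 9.49 in clone 83 unstimulated, against 8.84, 7.86 and 8.41 in clones 7, 29 and 75, 8.30 in clone 69 and 5.99 in clone 73, and with LPS at 9.53, against 8.88, 8.18, 8.12, 8.41 and 5.87. Clone 83 was the highest, but clone 73 was far below all the others in both conditions, and without clone 73 the shift of clone 83 fell from 1.62 to 1.14. E330020D12Rik was at 7.83 in clone 83 and at 6.28 to 6.47 in the others unstimulated, and at 7.63 and 5.81 to 6.35 with LPS, so that 1 clone stood clear of 5 that lay close together. Ccnt2, cyclin T2 of the transcription elongation factor P-TEFb, showed the same order with a small spread, at 9.01 unstimulated against 8.10 ± 0.06 (mean and SD of the other 5 clones) and at 9.18 with LPS against 8.39 ± 0.08. Sft2d2, a protein of vesicle transport, was at 9.79 and 9.61, against 8.77 to 9.05 and 8.42 to 9.06. Mixl1, a homeobox factor of early development, was at 7.19 and 7.06 in clone 83, with clone 73 next at 6.47 and 6.86, and it met the level minimum only with clone 83 included.

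On distal chromosome 1 the role lists held 5 to 12 members each, too few to compare, beside 77.6% of all its members past the size. Of 11 members in cell division and DNA, 9 were higher by at least 0.2 log2 in both conditions (list median 0.48), with Ube2t, a ubiquitin-conjugating enzyme of DNA crosslink repair, at 0.72 and 0.69. Of 12 in RNA processing, translation and metabolism 10 were (0.38). That list also held Ppp1r12b and Arpc5, genes of other roles, of which Ppp1r12b is counted among its 10. Of 8 in signalling and transcription 4 were higher by that size (0.38). Bcl2, which blocks apoptosis, stood at 0.92 and 0.57 and the kinase Abl2 at 0.56 and 0.62. Of 5 members in macrophage surface and inflammation 2 were (0.22). Ptprc, the leukocyte phosphatase CD45, was at 0.25 and 0.20, just short of that size with LPS, and Fcgr2b, the inhibitory Fc receptor, at −0.20 and −0.03. Against the direction lay 2900060B14Rik (−0.28 and −0.24) and Traf5, an adaptor of TNF receptors (−0.17 and −0.11), where clone 73 was lower still; without clone 7 the mean shift of Traf5 went from −0.14 to −0.00.

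On distal chromosome 2 the shift of clone 73 ran from −0.38 to −0.24 in 5 windows of 10 Mb. Before the bound the 10 Mb windows lay between −0.09 and 0.03. Few steady genes mark the change: Crls1 at 132.8 Mb stood at −0.12, Mkks and Slx4ip at 136.9 Mb at −0.28 and −0.24, Esf1, the first gene inside at 140.1 Mb, at 0.06, and Snrpb2 and Dstn beyond it at −0.31 and −0.47.

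Rbbp9 and Cst7 lay far beyond the other members of distal chromosome 2. Rbbp9, a serine hydrolase that binds the retinoblastoma protein, was at 4.12 in clone 73 unstimulated, against 7.68, 7.85 and 6.77 for the low clones (7, 29, 75) and 7.26 and 6.84 for clones 69 and 83, and with LPS at 3.84, against 7.80, 7.64 and 6.67, and 7.34 and 6.66. Its shift was −3.27. In clone 73 the gene lay under the median of its array (4.44 and 4.42 over all genes), where arrays carry little signal over background, so no fold is given. Cst7, cystatin F, an inhibitor of lysosomal proteases in leukocytes, was at 6.21 in clone 73, against 9.10, 8.53, 9.05, 8.23 and 7.60 in clones 7, 29, 75, 69 and 83, and with LPS at 6.40, against 9.01, 8.74, 8.98, 8.11 and 7.44. Clone 73 was the lowest in both, clones 83 and 69 came next, and the low clones were highest. The other leading members moved less: Rps21, a ribosomal protein, was at 8.17 and 8.24 in clone 73 against 8.93 to 9.12 and 8.71 to 9.08, and Plk1s1, the centrosomal protein that RefSeq names Kiz, at 7.37 and 7.36 against 7.72 to 8.31 and 7.88 to 8.16.

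The feature of Mir3091 lies inside that of Rps21 (chr2:180257536-180257611 within chr2:180257377-180258551, mm10, both on the plus strand), so its value cannot be told apart from the RNA of Rps21. It was at 6.19 and 6.42 in clone 73, against 7.14 to 7.26 and 6.53 to 7.46 in the others. Its mature microRNAs are shown because the feature bears their name; capitals mark the seed, bases 2 to 8 (RefSeq, GRCm38.p6).
mmu-miR-3091-5p (chr2:180257547-180257567, plus strand): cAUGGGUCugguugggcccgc
mmu-miR-3091-3p (chr2:180257580-180257601, plus strand): cGGGCCUGaccagucucaagac
The seeds of both arms differ. The array measured total RNA with sense strand targets and does not separate mature microRNAs from their host transcript.

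On distal chromosome 2 the role lists were 8 of 11 members lower by at least 0.2 log2 in both conditions for RNA processing, translation and proteasome, 6 of 10 for cell division and DNA, 3 of 6 for signalling and transcription and 0 of 4 for macrophage surface, lysosome and inflammation. Of all members of the segment, 58.9% were. The first list also held Dstn, Romo1 and Tpd52l2, genes of other roles that are counted among its 8. Plcg1, phospholipase C gamma, stood at −0.60 and −0.63, E2f1, a transcription factor of S phase entry, at −0.60 and −0.47, and Psma7, a proteasome subunit, at −0.53 and −0.46. Cst3, cystatin C, stood at −0.12 and 0.03. Against the direction lay Gm14402, a predicted gene with probes shared with other genes, at 0.74 and 0.88, and Dnmt3b, a DNA methyltransferase, at 0.05 and 0.22; without clone 75, whose LPS array was at 5.22, the mean shift of Dnmt3b was −0.03.

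**Figure D4:**
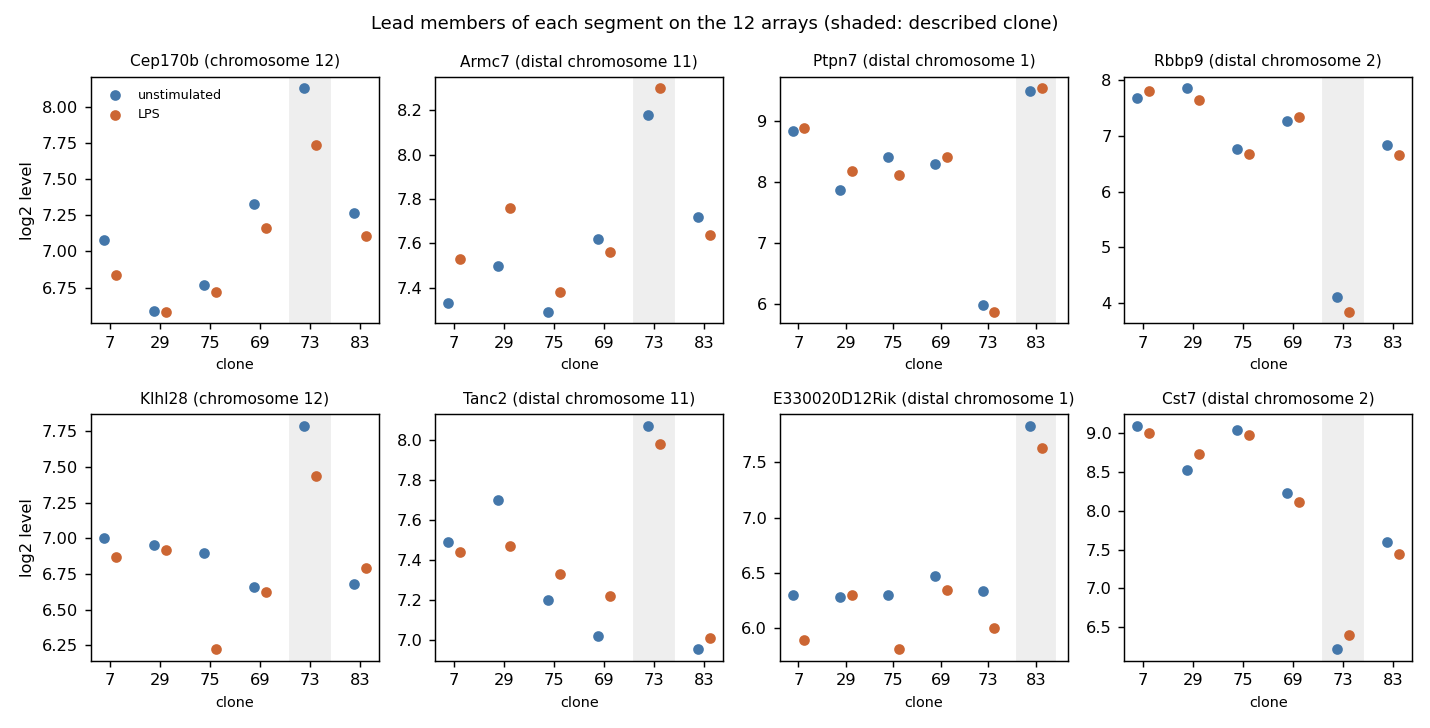
Log2 level (vertical axis) of the 2 furthest members of each segment on the 12 arrays, by clone (horizontal axis), unstimulated in blue and with LPS in orange, with the described clone shaded. The shaded clone is the highest for chromosomes 12, 11 and 1 and the lowest for chromosome 2, and clone 73 is also low for Ptpn7, at 5.99 and 5.87.

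The limits of the rule were checked on the genes that it left out. Those left out by symbol were too few to compare. Their medians were 0.39 (4 genes) on chromosome 12, 1.05 (1) on distal chromosome 11 and −0.37 (2) on distal chromosome 2. On distal chromosome 1 the median was −0.015, with 1 of 3 genes in the direction of the segment. Genes of the segments that changed with LPS showed shifts like those of the members, with medians of 0.43 (96 genes) on chromosome 12, 0.39 (68) on distal chromosome 11, 0.42 (89) on distal chromosome 1 and −0.34 (62) on distal chromosome 2. Genes within 0.05 log2 of the limit on the LPS change stood at 0.36 inside and 0.43 outside it on chromosome 12, 0.36 and 0.30 on chromosome 11, 0.46 and 0.42 on chromosome 1 and −0.33 and −0.38 on chromosome 2. Genes within 0.5 log2 of the level minimum stood at 0.26 inside and 0.18 outside it, 0.30 and 0.23, 0.57 and 0.51, and −0.21 and −0.32 in the same order. Genes with a mean level under 4, where an array carries little signal over background, had medians of 0.04, 0.00, 0.05 and −0.04. Members at level 10 and over had medians of 0.35, 0.32, 0.26 and −0.20, nearer to 0 than those at level 8 to 9 (0.40, 0.39, 0.44 and −0.35).

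**Figure D5:**
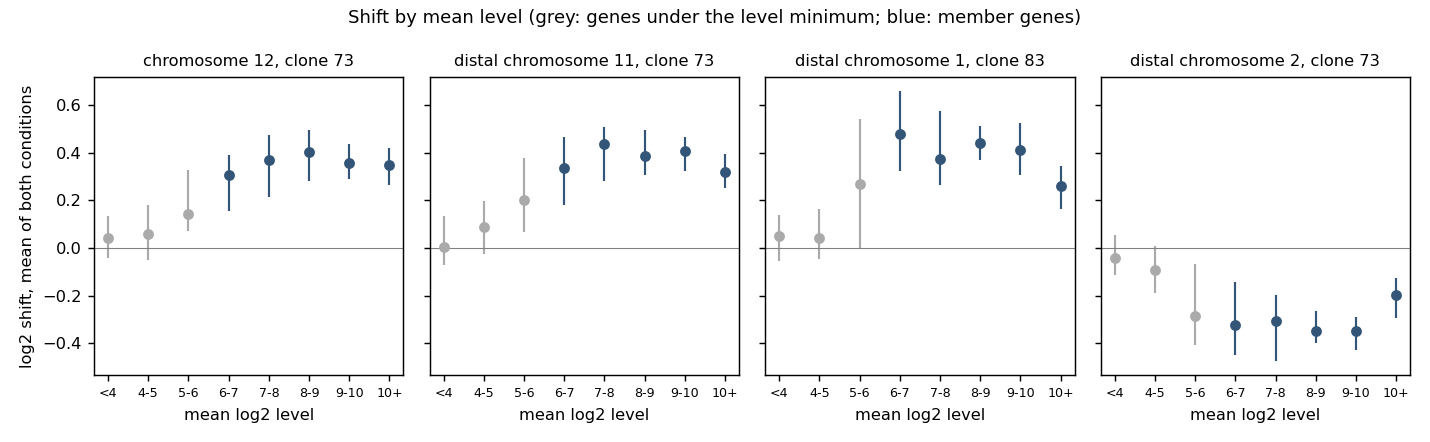
Shift in the described clone (log2, mean of both conditions, vertical axis) by mean log2 level of the genes (horizontal axis), 1 panel per segment; points are medians and bars the interquartile range. Genes under level 4 lie near 0 (0.04, 0.00, 0.05 and −0.04), and member genes lie between 0.26 and 0.48 in size on the higher segments.

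The segments were not the whole of what set these clones apart. Among 224 windows of 10 Mb with at least 10 steady genes, clone 73 had a median at least 0.2 higher in 24, of which 14 lay in the segments, and at least 0.2 lower in 10, of which 6 did. These 6 were the 5 windows of distal chromosome 2 and that from 190 to 200 Mb on distal chromosome 1, at −0.25. The latter lies in the segment described for clone 83, and clone 73 enters the mean that clone 83 is set against. Clone 83 had 17 higher windows, 6 of them in the segments, and 1 lower window outside them. The other clones also had windows past this size, all outside the segments: clone 69 had 15 higher and 2 lower, clone 75 had 15 lower, clone 7 had 5 higher and 8 lower, and clone 29 had 8 lower. The segments were chosen as shifted in 1 clone only, so nothing is read from the lack of such windows in them. Over the steady genes of each chromosome outside the segments, clone 73 ran from −0.20 on chromosome 18 to 0.25 on chromosome 14, and clone 83 from −0.06 on the X chromosome to 0.32 on chromosome 14; leaving out chromosomes 5, 14, 15 and 18, picked after their values were seen, the range was −0.05 to 0.05 for clone 73 and −0.06 to 0.05 for clone 83.

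Both described clones belong to the high group, so the comparison of high with low clones was tested over all 27293 genes with limma on the log2 values, and the members were read from that fit. The rule did not use this contrast, though a clone that stands apart enters its group's mean. The fit takes its spread from both arrays of each clone, with no term for the clone. On the 6 arrays of either condition alone, where each clone enters 1 time, no member passed the threshold given next. Unstimulated, 2 members passed a Benjamini-Hochberg adjusted p under 0.05, 1 in each direction, beside 1.14% of all genes (0.92% higher and 0.216% lower in high clones), and with LPS 3 members, all higher in the high clones, beside 1.32% of all genes in either direction and 0.982% higher; as shares of the members these are 0.243% and 0.365%. Of the 3 called with LPS, Ccdc57 met the level minimum only with clone 73, a high clone, included. Another, Rpl15, is placed by RefSeq on a chromosome outside the segments. At an unadjusted p under 0.05 there were 81 and 91 members, beside 10.5% and 10.9% of all genes.

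Serpinb8, an intracellular inhibitor of serine proteases on distal chromosome 1 (107590006 to 107608978), was called in both conditions. Unstimulated it was at 6.74, 5.96 and 6.33 in the low clones (7, 29 and 75) and at 7.74, 7.44 and 7.57 in the high ones (69, 73 and 83), and with LPS at 6.58, 5.82 and 6.11 and at 7.26, 7.07 and 7.27. The groups did not overlap, and all 3 high clones were raised, not clone 83 alone. The difference was 1.24 ± 0.20 (SE, adjusted p = 0.0125) unstimulated and 1.03 ± 0.20 (adjusted p = 0.0275) with LPS. Unstimulated the call was lost without clone 75, 69 or 83 (1.23, 1.16 and 1.25) or 29, and with LPS without any clone except clone 7 (0.85 to 1.09 where it was lost).

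Sp4, a transcription factor at the distal end of chromosome 12 (118234933 to 118301440), was lower in high clones unstimulated. It was at 7.08, 6.89 and 6.65 in the low clones and at 6.08, 6.28 and 5.88 in the high clones, listed as before, a difference of −0.79 ± 0.17 (SE, adjusted p = 0.0392), and clone 73 was the highest of the high clones. With LPS, Rpl15, a ribosomal protein annotated on chromosome 12 that RefSeq places on chromosome 14, was at 11.60, 11.50 and 11.35 in the low and at 11.90, 12.02 and 12.01 in the high clones, a difference of 0.49 ± 0.10 (SE, adjusted p = 0.0297). Ccdc57, a coiled-coil protein on distal chromosome 11 (120826529 to 120932872), was at 5.72, 5.82 and 5.24 and at 6.19, 6.58 and 6.53, a difference of 0.84 ± 0.19 (SE, adjusted p = 0.0479), with clones 73 and 83 alike. Ccdc57 is among the 6 members that met the level minimum only with the described clone of their segment included, here clone 73. In none of these 3 did the groups overlap. Leaving out any clone ended the calls of Sp4 (−0.91 to −0.69) and Rpl15 (0.43 to 0.55), and the call of Rpl15 was also lost when all features of a symbol were averaged (0.48, adjusted p = 0.0543 by limma). Leaving out any clone but 69 ended that of Ccdc57 (0.66 to 0.95 where it was lost).

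The median differences of whole segments are a description, since the choice of segments with 1 high clone apart fixes their direction and their return toward 0 without that clone. The median difference between high and low clones was 0.09 unstimulated and 0.14 with LPS on chromosome 12, 0.12 and 0.13 on distal chromosome 11, 0.09 and 0.14 on distal chromosome 1 and −0.12 and −0.08 on distal chromosome 2, beside −0.00 and −0.00 over all genes tested. Without the described clone these were −0.03 and 0.00, −0.01 and 0.01, −0.04 and 0.02, and −0.02 and 0.02.

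The LPS responses of high and low clones were compared in the same fit. No member passed (0 of 822 by limma, beside 0.011% of all genes), and 8 members had an unadjusted p under 0.05, where 4.73% of all genes did. The smallest adjusted p among members was 0.983. Members were chosen for a small mean change with LPS over all clones. A small response in each single clone was not part of the rule, nor was the difference of responses. Dnmt3b, for example, went from 6.38 to 5.22 with LPS in clone 75.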

How the data were processed

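RNA levels were measured on Affymetrix Mouse Gene 2.1 ST arrays. Deposited values are log2 levels from RMA, run by the authors in Affymetrix Expression Console (version not given in the sources used here), with background correction, quantile normalization, median polish and NetAffx build 34 on mm10, per the file headers and the submitters' processing notes. Quantile normalization gives all arrays the same distribution, so shifts are relative to the other genes of an array. No column of values per sample went unused (0). The workbook and the series matrix held the same values for 41155 features.

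Shifts were computed with Python 3.11.15 (pandas 2.3.3, numpy 2.4.6) and group comparisons with limma 3.58.1 in R 4.3.3, a fit of 4 groups over 12 arrays with no term for the clone, two-sided, Benjamini-Hochberg adjusted over 27293 genes. The scripts were tested on simulated data. Members and role lists were chosen with earlier results of these data known. Named genes are, per segment, the 5 members furthest along and the 2 furthest against the direction (ranked by the smaller of the shifts in the 2 conditions), the genes next to each bound, the furthest of each role list, and up to 3 called members per comparison; other genes in the role lists were named as examples after their values were seen. Some of the genes this rule names are not reported here. Both arrays of a clone come from the same clone per the labels, which pairs them; their deviations from the group means correlated at 0.10 (clone 75) to 0.42 (clone 83). The number of arrays limits the precision, and the labels give no batch. Alternatives covered the level minimum, the limit on the LPS change, centring, shared probes, the feature per gene, each clone left out and the clone as a block.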

Additional observations from a re-analysis of the deposited data

How the results depend on the processing

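No segment shift reversed under any alternative run. Without a level minimum they shrank to 0.163 unstimulated and 0.125 with LPS on chromosome 12, 0.182 and 0.146 on distal chromosome 11, 0.148 and 0.164 on distal chromosome 1 and −0.118 and −0.154 on distal chromosome 2, where many more dim genes enter. On distal chromosome 11 unstimulated the shift was 0.392 with arrays centred on steady genes and 0.395 with an LPS change under 0.15. Leaving out each other clone gave 0.325 to 0.348 and 0.375 to 0.393 on chromosome 12 (unstimulated and LPS), 0.370 to 0.380 and 0.358 to 0.393 on distal chromosome 11, 0.373 to 0.408 and 0.398 to 0.415 on distal chromosome 1, and −0.345 to −0.320 and −0.305 to −0.255 on distal chromosome 2. Of the alternatives chosen after seeing the data, keeping only members placed on the same chromosome by RefSeq (4 segments) and extending distal chromosome 11 by 4 Mb and distal chromosome 1 by 8 Mb toward the centromere moved no shift beyond the spread of the other clones; distal chromosome 2 was not extended. Of 221 values of single named genes, 1 reversed, the shift of Dnmt3b, which ran from −0.03 without clone 75 to 0.235 without clone 83. A further 1 moved beyond the SD of the other clones (0.053). This was 2900097C17Rik, from −0.633 to −0.454 when all features of its symbol were averaged. The causes were not tested.

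The count of members called between high and low clones unstimulated was 2, among 310 genes called. It was 6 among 447 when only the 9927 genes of level 6 and over were tested (fewer genes). A trended, robust eBayes gave 4 among 359. The 6 unstimulated arrays alone (fewer arrays, of the same 6 clones) gave 0 among 53. With LPS the count was 3 among 359, with 7 among 496 and 0 among 127 for the first and last of these. Leaving out single clones gave 0 to 3, among 38 to 185 genes called, and with LPS 0 to 4, among 108 to 187. These were partly other members than those called with all clones. Without clone 69, 0 of the 3 unstimulated and 1 of the 4 with LPS were the same. Without clone 75, 0 of the 1 called with LPS was the same. With the clone as a replicate block, the pairing gave 2 and 3 members, and 0 for the difference of responses, and so changed no call. Averaging all features of a symbol gave 2 with LPS. Dim genes limit what can be said of members near the level minimum.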
